A study of Mus musculus with 34 samples.

Results

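Glutathione and thioredoxin carry most of the reducing power with which a cell removes peroxides and reactive foreign compounds. Glutathione is made by glutamate-cysteine ligase, is used by peroxidases and transferases, and is returned to its reduced form by glutathione reductase at the cost of NADPH. The thioredoxin branch reduces peroxiredoxins in the same way, and sulfiredoxin repairs peroxiredoxins that have been oxidised too far. Many of these genes are targets of the transcription factor Nrf2, which the sensor Keap1 holds back, and which binds DNA at antioxidant response elements together with a small Maf protein. In the heart, as a tissue of high oxygen use, these systems limit oxidative damage to muscle cells.

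The genes described here are 10 members of these systems: Gclc, Gclm, Gsr, Gstm1, Gsta4, Gpx3, Srxn1, Txnrd1, Prdx1 and Hmox1. They are 10 of the 19796 genes measured in the series. Their probes were found on the array through the RefSeq accession that each probe carries in the scanner files, which gave 15 probes, with 3 for Gsr, 3 for Srxn1, 2 for Gstm1 and 1 for each of the other 7 genes. None of the 15 was removed by the filter on dim signals, and 9 of the 10 genes were well above background on all 34 arrays, the exception being Gclm with 32. The set was chosen in part because Gstm1, Gsr and Srxn1 differed between carbon black and control hearts over all days, in opposite directions. Differences between carbon black and control hearts in the 10 genes are therefore given as a description, without a test. Tests are given for what did not enter the choice of these 10. The further genes tested were listed with earlier results of these data known.

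The hearts came from female C57BL/6 mice, acquired at 5 to 6 weeks of age. The carbon black groups were given Printex 90, a carbon black made of nanoparticles, at 162 µg by intratracheal instillation, and the control groups were given vehicle with 0 µg. Printex 90 was suspended in 0.9% NaCl with 10% of cell-free lung lavage fluid, and 40 µl was instilled. Carbon black hearts numbered 6 at day 1, 5 at day 3 and 5 at day 28 after instillation, and control hearts numbered 6 at each of these days. Each array held the RNA of 1 mouse, taken from a random section of heart with both ventricles, so the cell types in a section were not controlled. In bulk tissue of this kind, fewer cells of a type and less RNA per cell cannot be told apart. Sample RNA carried Cy5 and a pooled universal mouse reference RNA carried Cy3 on every array. Values are log2 ratios of heart over reference unless stated otherwise, and a ratio above 0 means more signal from the heart RNA. Dyes were not swapped, so the level of a ratio is open to dye bias. A dye bias that is equal on every array cancels in a difference between groups.

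Some facts of the arrays bear on all results. The share of spots with a heart signal clear of background ran from 42.1% to 66.1% by array, with a median of 54.3%, and no member spot was saturated or missing. The arrays lay on 14 slides, 10 of which held hearts of both treatments. Position on the slide was uneven: 10 of 16 carbon black arrays and 0 of 18 control arrays lay at position 4, while 2 carbon black and 12 control arrays lay at position 1. Sections also differed in tissue make-up. All 8 cardiomyocyte markers were above background on all arrays, as were 3 of 4 atrial markers, with the remaining one above background on 33. The atrial score, a mean over 4 markers of the deviation from the median array, ran from -4.23 to 0.92 in carbon black hearts and from -3.90 to 0.49 in control hearts. It averaged -0.1 and -0.67, with all 4 markers higher in carbon black hearts. An adipose score of the same kind averaged -0.33 and -0.73, with all 7 markers used higher in carbon black hearts. Liver transcripts, which a ventricular section should lack, ran from -0.30 to 3.46 on the same kind of score in carbon black hearts and from -0.34 to 5.31 in control hearts, and all 6 liver markers used were lower on average in carbon black hearts. The cardiomyocyte score averaged 0.07 in carbon black hearts and -0.29 in control hearts, with all 8 markers higher in carbon black hearts and 1 of 8 past the adjusted threshold of 0.05.

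Over all genes, 387 of 19796 passed that threshold between carbon black and control hearts over all days (1.95%), 264 higher and 123 lower in carbon black hearts, by limma with Benjamini-Hochberg adjustment. No gene passed at day 1, day 3 or day 28 alone, where 1425, 2198 and 591 genes had an unadjusted limma p under 0.05. Among the 10 members, 5 differences lay above 0 and 5 below over all days, with a median of 0.00, against 50.4% of all genes above 0 and a median of 0.00. By day, 5, 7 and 6 of the 10 lay above 0 at day 1, day 3 and day 28, against 48.9%, 53% and 51.9% of all genes. These counts lay near those of all genes.

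The promoters of these genes are given before the expression values because several of the members are known Nrf2 targets. RefSeq promoter sequences on GRCm38.p6, from 250 bases before to 50 bases after a start, were at hand for 6 of the 10 genes, in 9 promoters. The antioxidant response element core TGACNNNGC was searched on both strands, where N is any base, as was the AP-1 element TGACTCA, whose reverse complement TGAGTCA differs in the middle base. The core was found in 4 of the 9 member promoters (of Gclm, Srxn1, Txnrd1 and Prdx1), against 12.4% of all 32851 promoters. The AP-1 element was found in 2 of the 9 (of Srxn1 and Prdx1), against 5.2% of all promoters. Neither was found in the 2 Gstm1 promoters or the Gpx3 promoter. The match in Srxn1 to the antioxidant core as searched began 28 bases after the start and is not printed. The core as searched takes only C after TGA. The Srxn1 AP-1 element at -45 reads TGAGTCAgc with the bases that follow it. This differs from the core only by G in place of that C. Forms of the core with G there were not searched, so the counts of the core do not cover them. The windows below hold all matches before a start in these members and in Mafk, a small Maf gene that is described further down, in the direction of transcription with the matches in capitals. All matches to the antioxidant core read as its reverse complement, GCNNNGTCA.
Srxn1, chr2:152105407-152105500, plus strand, AP-1 elements at -102 and -45: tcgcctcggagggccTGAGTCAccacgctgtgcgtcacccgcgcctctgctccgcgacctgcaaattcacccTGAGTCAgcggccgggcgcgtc
Gclm, chr3:122245408-122245446, plus strand, antioxidant core at -134: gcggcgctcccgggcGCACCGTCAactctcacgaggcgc
Txnrd1, the second of 3 promoters, chr10:82859099-82859137, plus strand, antioxidant core at -92: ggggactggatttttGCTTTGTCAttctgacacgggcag
Prdx1, chr4:116685349-116685489, plus strand, AP-1 elements at -237 and -131 and an antioxidant core at -133 that overlaps the nearer AP-1 element: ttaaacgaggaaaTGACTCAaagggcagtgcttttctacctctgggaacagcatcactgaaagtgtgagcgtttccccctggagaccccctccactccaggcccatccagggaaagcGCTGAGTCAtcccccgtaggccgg
Mafk, chr5:139791508-139791535, plus strand, antioxidant core at -13: cgcgcgatcccggaaGCGGTGTCAgtac
A match is a run of letters and was not tested for binding. 

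Glutathione synthesis and recycling came first. Gclc encodes the catalytic subunit of glutamate-cysteine ligase, the rate-limiting enzyme of glutathione synthesis, and Gclm encodes its modifier subunit. Neither stood apart between treatments. Gclc ranged from -1.01 to -0.07 with a median of -0.61 in carbon black hearts and from -1.49 to 0.35 with a median of -0.79 in control hearts. The 2 ranges overlapped in full, and the all-days difference was 0.12 ± 0.12 (SE). Gclm ranged from -0.84 to -0.01 with a median of -0.41 in carbon black hearts and from -0.69 to 0.11 with a median of -0.33 in control hearts. Its difference was -0.09 ± 0.08, with 10 of 16 carbon black hearts below the control mean of their day.

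Gsr encodes glutathione reductase, which turns oxidised glutathione back into reduced glutathione. Its brightest probe was higher in carbon black hearts on each day. At day 1 it ran from -0.99 to -0.49 with a median of -0.68 in 6 carbon black hearts, against -1.17 to -0.71 with a median of -1.13 in 6 control hearts. At day 3 the 5 carbon black hearts had -0.58, -0.63, -0.71, -0.55 and -0.79, against a range of -1.45 to -0.39 with a median of -1.22 in control hearts. At day 28 the 5 carbon black hearts had -0.67, -0.77, -0.66, -0.73 and -0.44, against -1.02 to -0.68 with a median of -0.91 in control hearts. The groups overlapped on every day. At day 3 the overlap came from 1 control heart, replicate 5, at -0.39, which lay above every other control heart, the next being at -1.01 on that day. All 16 carbon black hearts lay above the control mean of their day. The difference was 0.37 ± 0.12 at day 1, 0.46 ± 0.13 at day 3 and 0.23 ± 0.13 at day 28, and 0.35 ± 0.07 over all days, or 1.28-fold. Of all genes, 5.27% had an all-days difference at least as large in either direction. The all-days difference entered the choice of Gsr, so this share is a description.

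The other 2 Gsr probes gave the same direction. Their all-days differences were 0.32 ± 0.12 and 0.47 ± 0.13, with 14 and 15 of 16 carbon black hearts above the control mean of their day. At day 28 alone these 2 probes differed by 0.12 ± 0.21 and 0.38 ± 0.22, with 3 and 4 of 5 carbon black hearts above the control mean. The 3 probes also varied together among hearts of 1 group, with Pearson correlations of 0.60, 0.55 and 0.37 over 34 arrays once group means were taken off. These probes share their RNA and are no replicates of each other.

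Among the glutathione transferases, which join glutathione to reactive compounds, Gstm1 showed the largest difference of the 10 genes. Gstm1 is a mu-class transferase and Gsta4 an alpha-class enzyme known for acting on the lipid peroxidation product 4-hydroxynonenal. At day 1 the brighter Gstm1 probe ran from 0.56 to 1.82 with a median of 1.36 in carbon black hearts, against -0.32 to 1.43 with a median of 0.73 in control hearts. At day 3 the carbon black hearts had 1.64, 1.13, 1.58, 1.62 and 1.49, against -0.09 to 1.27 with a median of 0.71 in control hearts. At day 28 the carbon black hearts had 1.34, 1.61, 1.73, 1.45 and 1.93, against 0.43 to 1.22 with a median of 1.08 in control hearts. By this brighter probe the groups overlapped at day 1 and day 3 and not at day 28. Of all genes, 0.389% did not overlap at day 28, 0.369% at day 1 and 0.894% at day 3. Control hearts at day 3 were spread wide, 3 of them between -0.09 and 0.21 and 3 between 1.20 and 1.27.

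The Gstm1 difference was 0.56 ± 0.26 at day 1, 0.86 ± 0.27 at day 3 and 0.62 ± 0.27 at day 28. Over all days it was 0.68 ± 0.16, or 1.60-fold, from means of 1.46 in carbon black and 0.78 in control hearts, and 15 of 16 carbon black hearts lay above the control mean of their day. Of all genes, 0.318% had a difference at least as large in either direction. The all-days difference entered the choice of Gstm1, so this share is a description. The second Gstm1 probe, a dimmer one, differed by 0.18 ± 0.08, with 11 of 16 carbon black hearts above the control mean. Its groups overlapped at day 28, at 0.74 to 1.08 in carbon black against 0.63 to 0.88 in control hearts. There it differed by 0.17 ± 0.15, with 3 of 5 carbon black hearts above the control mean. The 2 probes correlated at 0.39 over arrays within groups. The brighter probe followed the related genes Gstm4 (Pearson 0.82) and Gstm7 (0.73) more closely than its own partner. The second probe followed Gstm3 most closely of the 6 related genes measured (0.57). Mu-class transferases are close in sequence, so how far each probe reads 1 gene alone was not tested, and the size of the Gstm1 difference is uncertain to that extent.

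**Figure D1:**
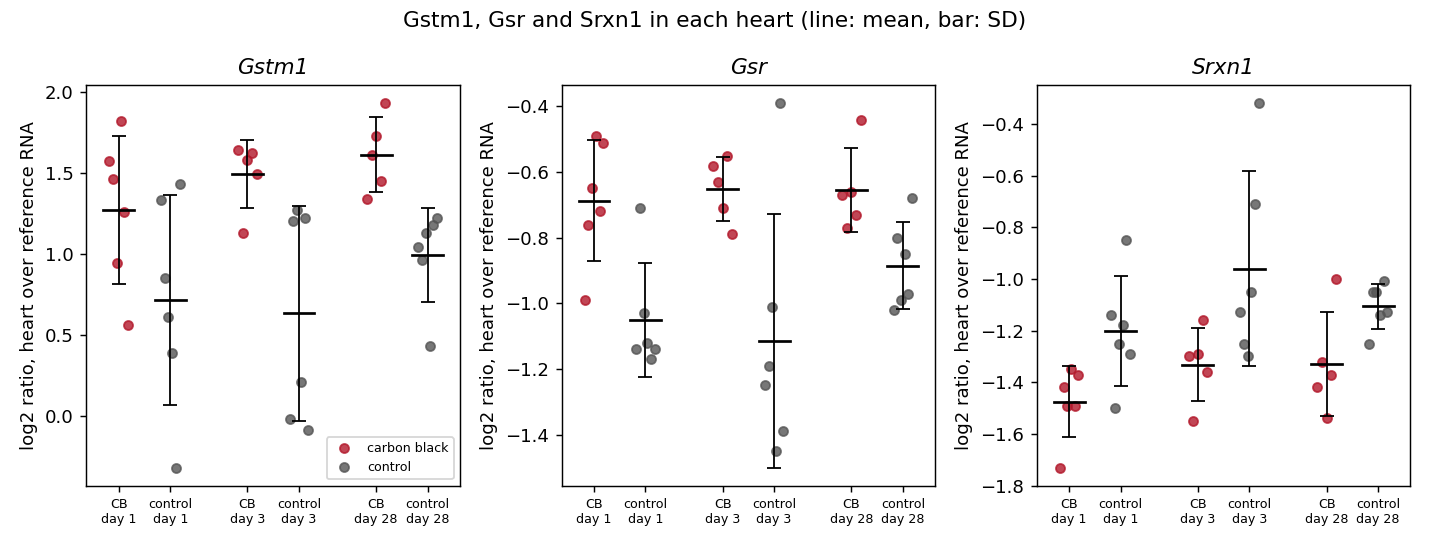
Log2 ratio of heart over reference RNA (y axis) for the brightest probe of Gstm1, Gsr and Srxn1 in each of 34 hearts, grouped by treatment (CB, carbon black) and day, with 6, 5 and 5 carbon black hearts at day 1, day 3 and day 28 and 6 control hearts at each day. Points are single mice, the horizontal line is the group mean and the bar its SD; Gstm1 and Gsr means are higher and Srxn1 means lower in carbon black hearts on each day, and Gstm1 at day 28 is the 1 panel and day without overlap.

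Array position and the choice of signal moved the Gstm1 value. With position as a fixed block the Gstm1 difference was 0.28 ± 0.19, and among the 6 carbon black and 18 control arrays at positions 1 to 3 it was 0.50 ± 0.23. With Agilent's processed signals it was 0.24 ± 0.06, with the mean of both probes 0.43 ± 0.10 and with median centring 1.1 ± 0.24. For Gsr the same 2 position settings gave 0.34 ± 0.10 and 0.38 ± 0.11, close to the value over all arrays, and median centring gave 0.66 ± 0.15. In each of the 10 slides that held both treatments the carbon black heart compared lay at position 4 and the control heart at position 1, so within slides treatment and position cannot be told apart. On these slides Gstm1 was higher in the carbon black heart on 10 of 10, by 0.24 to 1.66 with a median of 0.74. Gsr was higher on 9 of 10, with a median of 0.34. The reference channel alone, where hearts of both groups share 1 RNA, differed by 0.01 ± 0.05 for Gstm1 and 0.01 ± 0.09 for Gsr, while the sample channel alone differed by 0.69 ± 0.15 and 0.32 ± 0.10.

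Gsta4 stayed nearly level. It ranged from -0.26 to 0.41 with a median of 0.30 in carbon black hearts and from -0.18 to 0.59 with a median of 0.24 in control hearts. The all-days difference was -0.02 ± 0.06, and 90.5% of all genes had a difference at least as large.

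Gpx3 encodes the secreted glutathione peroxidase of blood plasma and was the member with the highest ratio of heart to reference RNA, averaging 3.69 ± 0.62 (SD, n = 18) in control hearts. It ranged from 0.96 to 5.48 with a median of 3.99 in carbon black hearts and from 2.99 to 5.2 with a median of 3.55 in control hearts. The lowest value came from carbon black day 1 replicate 6, one of 5 hearts of low atrial score. The difference was 0.16 ± 0.49 at day 1, 0.28 ± 0.52 at day 3 and 0.64 ± 0.52 at day 28, and 0.36 ± 0.29 over all days. It was 0.57 without carbon black day 1 replicate 6, and -0.17 ± 0.42 with position as a block. With errors of this size neither 0.36 ± 0.29 nor -0.17 ± 0.42 sets a direction, and the part of position was not tested. The Gpx3 probe also varied between arrays in the reference channel, where every array holds the same RNA. There it ran from 6.58 to 11.09 on the log2 signal scale, with a within-group SD of 1.30, against a median SD of 0.17 over all genes and with 0.111% of genes as variable. The sample and reference channels of Gpx3 correlated at 0.91 over arrays within groups. For comparison, the reference channel of Gstm1 had an SD of 0.13 and that of Srxn1 0.13. The Gpx3 ratio therefore rests on a spot whose brightness changed from array to array in both channels.

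In the thioredoxin branch, the brightest Srxn1 probe was lower in carbon black hearts on each day. Srxn1 encodes sulfiredoxin, which returns overoxidised peroxiredoxins to use. At day 1 the brightest probe ran from -1.73 to -1.35 with a median of -1.46 in carbon black hearts, against -1.50 to -0.85 with a median of -1.22 in control hearts. At day 3 the carbon black hearts had -1.30, -1.55, -1.29, -1.16 and -1.36, against -1.30 to -0.32 with a median of -1.09 in control hearts. At day 28 the carbon black hearts had -1.42, -1.32, -1.54, -1.37 and -1.0, against -1.25 to -1.01 with a median of -1.09 in control hearts. Groups overlapped on each day, through a single carbon black heart at day 28, which was the highest of its group. The difference was -0.27 ± 0.13 at day 1, -0.37 ± 0.13 at day 3 and -0.23 ± 0.13 at day 28. Over all days it was -0.29 ± 0.08, or 0.82-fold, and 15 of 16 carbon black hearts lay below the control mean of their day. A difference at least as large in either direction was held by 8.68% of all genes. The all-days difference entered the choice of Srxn1, so this share is a description.

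The other 2 Srxn1 probes differed by -0.17 ± 0.07 and -0.09 ± 0.07 over all days. At day 1, day 3 and day 28 the second probe differed by -0.11 ± 0.11, -0.22 ± 0.12 and -0.19 ± 0.12. The third differed by -0.03 ± 0.12, -0.21 ± 0.13 and -0.03 ± 0.13. Those 2 dimmer probes followed each other (Pearson 0.78 over arrays within groups) and hardly the brightest probe (0.06 and 0.23). Within slides, again position 4 against position 1, Srxn1 was lower in the carbon black heart on 8 of 10, with a median of -0.18, by the brightest probe. By the third probe it was lower on 5 of 10. The direction also depended on the scaling: with each array centred on its median in place of loess, Srxn1 differed by 0.07 ± 0.15, where the median of all genes was itself shifted by 0.19. The mean of its 3 probes differed by -0.19 ± 0.06.

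**Figure D2:**
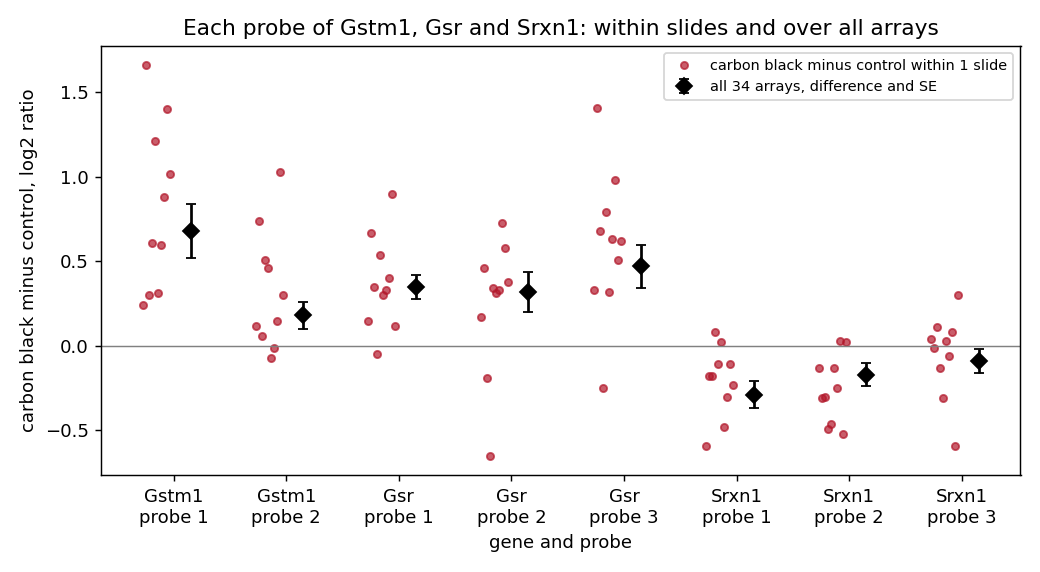
Carbon black minus control on the log2 ratio scale (y axis) for each of the 8 probes of Gstm1, Gsr and Srxn1 (x axis). Red points are differences within the 10 slides that held both treatments, each a carbon black heart at position 4 minus a control heart at position 1, and black diamonds are the all-days difference with its SE over 34 arrays; the diamonds lie above 0 for all Gstm1 and Gsr probes and below 0 for all Srxn1 probes, with the third Srxn1 probe nearest to 0 at -0.09.

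Prdx1 encodes an abundant cytosolic peroxiredoxin, a substrate of sulfiredoxin, and Txnrd1 encodes cytosolic thioredoxin reductase, a selenoprotein. Prdx1 differed most at day 1. It ran there from -0.92 to -0.48 with a median of -0.79 in carbon black hearts, against -0.69 to -0.01 with a median of -0.31 in control hearts, and all 6 carbon black hearts lay below the control mean, although the ranges overlapped. The difference was -0.47 ± 0.18 at day 1, -0.04 ± 0.18 at day 3 and 0.09 ± 0.18 at day 28. Over all days it was -0.14 ± 0.10. With position as a fixed block the all-days value was -0.01 ± 0.15, and at positions 1 to 3 it was 0.03 ± 0.14. The change between days did not pass in the test given further down. Txnrd1 ranged from -1.57 to -1.02 with a median of -1.25 in carbon black hearts and from -1.55 to -0.98 with a median of -1.24 in control hearts. Its all-days difference of 0.02 ± 0.06 was among the smallest measured, with 88% of genes having one at least as large.

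Hmox1 encodes haem oxygenase 1, which breaks haem down to biliverdin, carbon monoxide and iron, and is a widely used sign of Nrf2 activity. Its signal was lower in heart than in reference RNA, at -1.90 ± 0.23 (SD, n = 18) in control hearts. It ranged from -2.51 to -1.76 with a median of -2.10 in carbon black hearts and from -2.26 to -1.50 with a median of -1.97 in control hearts. The difference was -0.15 ± 0.13 at day 1, -0.19 ± 0.13 at day 3 and -0.22 ± 0.13 at day 28. Over all days it was -0.19 ± 0.08, and 13 of 16 carbon black hearts lay below the control mean of their day. With each array centred on its median the Hmox1 difference was 0.17, below the shift of all genes.

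**Figure D3:**
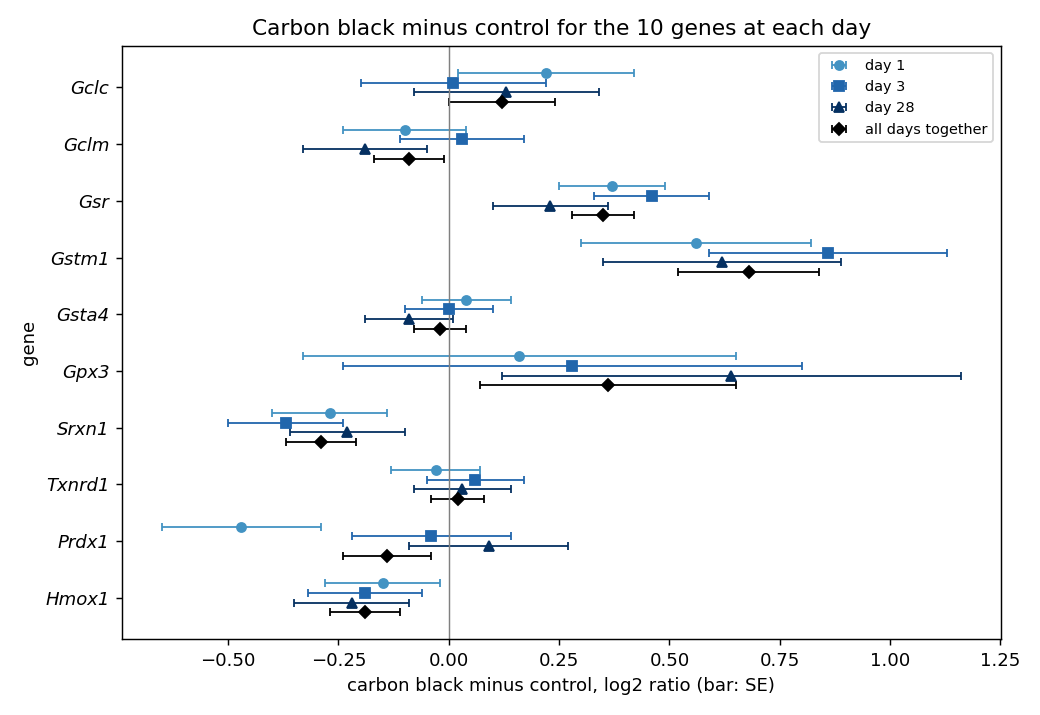
Carbon black minus control on the log2 ratio scale (x axis) with its SE for each of the 10 genes (rows) at day 1, day 3, day 28 and over all days. Gstm1, Gsr, Gclc and Gpx3 lie above 0 and Srxn1 and Hmox1 below 0 on every day, while Prdx1 lies at -0.47 at day 1 and near 0 later. These 6 of 10 genes keep 1 sign on all 3 days, as do 44.5% of all genes.

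Whether these differences changed with time did not enter the choice of genes and was tested. In a moderated F test in limma of the carbon black difference between days, no member passed after adjustment over 19796 genes, where 0% of all genes passed and 198 had an unadjusted p under 0.05. The smallest unadjusted p among members was that of Prdx1, at 0.0839 (limma, adjusted p = 1), whose difference was 0.43 ± 0.25 larger at day 3 and 0.56 ± 0.25 larger at day 28 than at day 1. For Gstm1 the difference was 0.30 ± 0.38 larger at day 3 and 0.06 ± 0.38 larger at day 28 than at day 1, so the error leaves room for sizeable change with time in either direction. Over the 3 days in control hearts, which received no particle, no member passed either (adjusted p = 1 for each in limma), with 0% of all genes passing and 474 at an unadjusted p under 0.05. The lowest unadjusted p values there were 0.17 for Gsr and 0.173 for Srxn1, with Gsr 0.23 ± 0.12 higher at day 28 than at day 3 and Srxn1 0.24 ± 0.13 higher at day 3 than at day 1.

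The wider pathway was measured in 78 further genes, taken from a list of 85 by role; 5 of these had no matched probe and 2 (Slc7a11 and Ggt1) did not pass the filter on dim probes. Over all days, 2 of 78 passed the adjusted threshold of 0.05 in limma, both higher in carbon black hearts, against 1.33% of all genes called higher. They were Mafk and Ggt5. Nothing particular to the list was tested, and the list was drawn up with earlier results of these data known. The median difference of the 78 was 0.01, against 0.00 over all genes, and 43 lay above 0. At an unadjusted limma p under 0.05 there were 9 of 78 higher and 2 lower, against 10.8% of all genes higher and 7.5% lower. At day 1, day 3 and day 28 alone none of the 78 passed in limma, as for all genes, with 5, 10 and 2 at an unadjusted p under 0.05, against 7.2%, 11.1% and 2.99% of all genes. None passed in the test between days or in control hearts over the days, with 1 and 0 at an unadjusted p under 0.05, against 1% and 2.39% of all genes.

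Mafk encodes one of the small Maf proteins that pair with Nrf2 on DNA. At day 1 it ran from 0.07 to 0.72 with a median of 0.56 in carbon black hearts, against -0.61 to 0.54 with a median of 0.34 in control hearts. At day 3 it ran from 0.38 to 0.84 with a median of 0.56 in carbon black hearts, against -0.17 to 0.46 with a median of 0.12 in control hearts. At day 28 it ran from 0.46 to 0.82 with a median of 0.61 in carbon black hearts, against -0.02 to 0.65 with a median of 0.24 in control hearts. The groups overlapped on each day, and 15 of 16 carbon black hearts lay above the control mean of their day. Mafk rose by 0.36 ± 0.09 over all days (limma, adjusted p = 0.0424).

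Ggt5 encodes a gamma-glutamyl transferase of the cell surface that acts on glutathione conjugates such as leukotriene C4. At day 1 it ran from 0.19 to 1.26 with a median of 0.93 in carbon black hearts, against -0.54 to 0.73 with a median of 0.47 in control hearts. At day 3 it ran from 0.64 to 1.09 with a median of 0.87 in carbon black hearts, against -0.44 to 0.78 with a median of 0.38 in control hearts. At day 28 it ran from 0.64 to 0.93 with a median of 0.86 in carbon black hearts, against 0.11 to 1.0 with a median of 0.54 in control hearts. Ggt5 thus overlapped on each day too, with 15 of 16 carbon black hearts above the control mean. It rose by 0.43 ± 0.12 over all days (limma, adjusted p = 0.0473). Both calls were lost with slide, scan day or position as a fixed block and without the arrays at position 4. With position as a block the difference was 0.15 ± 0.15 for Ggt5 (limma, adjusted p = 0.869) and 0.26 ± 0.13 for Mafk (adjusted p = 0.651), and without position 4 it was 0.27 ± 0.17 for Ggt5 and 0.30 ± 0.14 for Mafk. With slide as a fixed block it stayed at 0.50 ± 0.14 for Ggt5 and 0.33 ± 0.11 for Mafk. The mean of the Ggt5 probes differed by 0.22 ± 0.07, and Agilent's processed signals gave 0.22 ± 0.09 for Mafk. Most arrays, left out singly, took 1 or both calls with them.

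By role, the transferases held the nearest further genes. For the counts by role below, 50.4% of all genes lay above 0 over all days. Of 20 transferases 10 lay above 0 and none passed, and the 2 of smallest p were Gstm4 at 0.36 ± 0.10 and Gstm7 at 0.36 ± 0.10 (limma, adjusted p = 0.0543 and 0.0586). Gstm4 and Gstm7 were also the family members that followed the bright Gstm1 probe, and hearts above the control mean numbered 15 and 14 of 16. Of 15 Nrf2 regulators and other known targets, 11 lay above 0 with a median of 0.14, and after Mafk the smallest p was that of Nfe2l2, which encodes Nrf2 itself, at 0.29 ± 0.10 (limma, adjusted p = 0.0949).

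In the thioredoxin group of 14 genes 8 lay above 0 and none passed. The methionine sulfoxide reductases Msrb1 and Msrb2, which repair oxidised methionine, were at 0.24 ± 0.09 and 0.50 ± 0.19 (limma, adjusted p = 0.116 and 0.139). All 5 further glutathione peroxidases lay below 0 over all days, against 9813 of 19796 genes, and none passed the threshold. At day 1, day 3 and day 28 alone, 0, 1 and 3 of these 5 lay above 0, against 48.9%, 53% and 51.9% of all genes. Gpx8 of the endoplasmic reticulum was at -0.26 ± 0.14 and Gpx2 at -0.12 ± 0.06 (limma, adjusted p = 0.338 and 0.348). Gpx1 was at -0.23 ± 0.21, Gpx4 at -0.04 ± 0.11 and Gpx7 at -0.16 ± 0.17, while the member Gpx3 lay above 0 at 0.36 ± 0.29. Of 9 genes that make, import or break down glutathione or encode glutaredoxins, 7 lay above 0, and Ggt5 alone passed. The mitochondrial glutaredoxin Glrx2 was at -0.17 ± 0.08 (limma, adjusted p = 0.238).

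The NADPH-supplying enzymes were spread to both sides, 4 of 6 above 0 and none past the threshold. Me1, malic enzyme 1, was at 0.47 ± 0.30 and Taldo1, transaldolase 1, at -0.24 ± 0.18 (limma, adjusted p = 0.434 and 0.518). Among superoxide dismutases and catalase 1 of 4 lay above 0, the extracellular Sod3 at 0.16 ± 0.13 and the cytosolic Sod1 at -0.07 ± 0.08 (limma, adjusted p = 0.565 and 0.704). In the haem and iron group 2 of 5 lay above 0, with biliverdin reductase B (Blvrb) at -0.21 ± 0.12 and the ferritin light chain Ftl1 at 0.20 ± 0.12 (limma, adjusted p = 0.359 and 0.387).

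**Figure D4:**
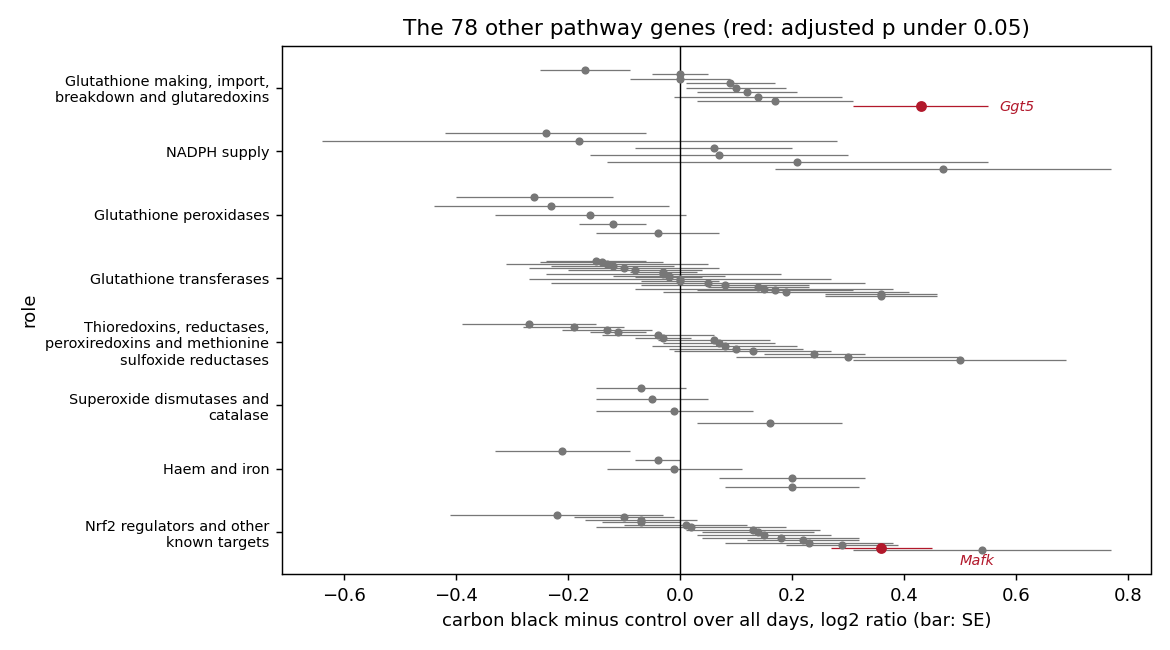
Carbon black minus control over all days on the log2 ratio scale (x axis) with its SE for the 78 further pathway genes, grouped by role (rows). The 2 red points, Ggt5 at 0.43 and Mafk at 0.36, passed the adjusted threshold of 0.05. The 5 glutathione peroxidases here lie below 0, with none past the threshold, while the member Gpx3, not shown, was at 0.36.

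The members did not vary as a block from heart to heart. After group means were taken off, the 45 pairs of members had Pearson correlations from -0.43 to 0.58 over 34 arrays, with a median of 0.11. The highest was between Srxn1 and Prdx1 (Pearson 0.58, Spearman 0.39), followed by Gclm with Gsta4 and Srxn1 with Hmox1 (Pearson 0.49 each). The lowest was between Gstm1 and Hmox1 (-0.43). The subunits Gclc and Gclm correlated at 0.43. These arrays share slides, dyes and 1 reference RNA, and the correlations are given without a test.

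Tissue make-up moved with several members. Gpx3 went with the macrophage score (Pearson 0.73), the atrial score (0.71) and the red blood cell score (0.68). It also went with the cardiomyocyte score (0.64) and the fibroblast score (0.63). The Gpx3 spot varied in the shared reference RNA as well, with a within-group SD of 1.30, which limits the reading of these values. Hmox1 and Srxn1 went against the cardiomyocyte score, at -0.77 and -0.67, and Srxn1 with the liver score at 0.50. Gstm1 went with the fibroblast (0.51), macrophage (0.48), red blood cell (0.47) and cardiomyocyte (0.46) scores. Gsr stayed between -0.32 and 0.14 with every score. The cardiomyocyte score at day 1 ran from -1.0 to 0.91 with a mean of -0.05 in carbon black hearts and from -0.82 to 0.10 with a mean of -0.17 in control hearts. At day 3 it ran from -0.26 to 0.25 in carbon black hearts and from -1.04 to 0.35 in control hearts, and at day 28 from 0.06 to 0.34 in carbon black hearts and from -0.69 to 0.15 in control hearts. The part of these scores in the Srxn1, Hmox1 and Gstm1 differences was not tested. Without the 3 control day 3 hearts of high liver score, Srxn1 differed by -0.20 ± 0.06, Gsr by 0.36 ± 0.06 and Gstm1 by 0.62 ± 0.16. Without the 5 hearts of low atrial score these values were -0.30 ± 0.08, 0.34 ± 0.08 and 0.74 ± 0.17.

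**Figure D5:**
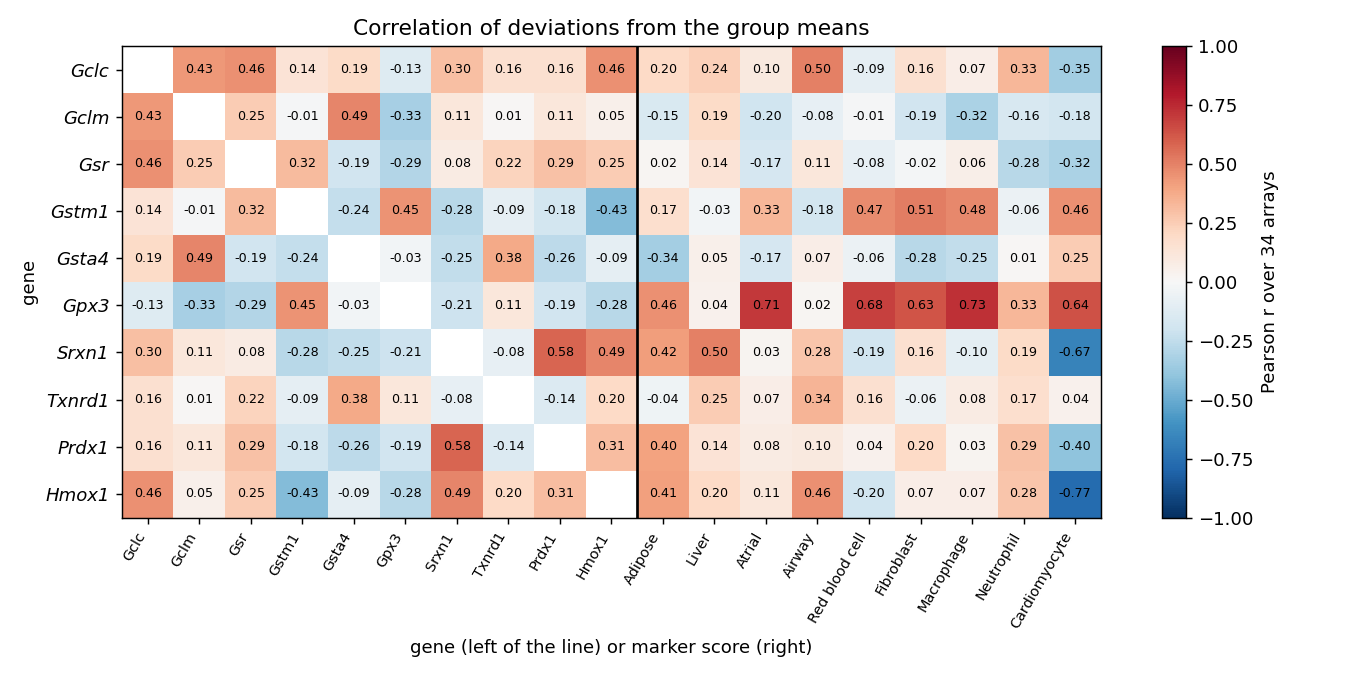
Pearson correlation over 34 arrays, after group means were taken off, of each of the 10 genes (rows) with the other members (columns left of the line) and with 9 marker scores (columns right of it), red for positive and blue for negative. Gpx3 is strongly red with the atrial and macrophage scores, Srxn1 and Hmox1 are blue with the cardiomyocyte score, and most pairs of members are pale.

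The named genes most like each of the 3 genes over arrays were of mixed kinds. For Gstm1 they were Hdac5 (Pearson 0.90), Scap (0.90) and Ypel3 (0.89). For Gsr they were Gjb1 (0.73), Hgfac (0.69) and Nipsnap1 (0.69), with Spearman correlations of only 0.39, 0.38 and 0.39, so those likenesses leaned on few arrays. For Srxn1 they were Itpk1, Rnf24 and Ndrg3 (0.84 each). Each likeness is over 34 arrays after group means were taken off. Their own carbon black minus control differences are given as a description. The genes like Gstm1 differed by 0.53 ± 0.13 (Hdac5), 0.47 ± 0.12 (Scap) and 0.35 ± 0.12 (Ypel3). Those like Gsr differed by -0.03 ± 0.07 (Gjb1), -0.24 ± 0.19 (Hgfac) and 0.12 ± 0.16 (Nipsnap1), and those like Srxn1 by -0.08 ± 0.14 (Itpk1), -0.05 ± 0.14 (Rnf24) and -0.26 ± 0.12 (Ndrg3).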

How the data were processed

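Heart RNA of 34 mice was measured on 2-colour arrays. The deposited scanner files hold spot intensity and background for each channel, read with Feature Extraction 10.1.1.1, per the file headers. The authors' deposited value table holds log2 ratios, found so from its values: its columns correlate at 0.995 to 0.998 with loess-normalised ratios without background correction, and have medians from -0.055 to -0.034. The submitters' own account of it is not used here. The array header names build mm8, from which no coordinates were taken; genes were named through RefSeq accessions (GRCm38.p6).

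Median signals went through limma 3.58.1 under R 4.3.3 and data.table (version 1.17.8): normexp with an offset of 50, then loess for each array, with control and outlier spots at weight 0. Spots of a probe were averaged (41174 probes). A probe was kept when it cleared background on a share of 0.5 or more of some group's arrays with at most 3 values missing (25247 probes), and a gene was represented by its probe of highest mean sample signal (19796 genes, 12348 named). A mean per group was fitted with 28 residual degrees of freedom, the all-days difference weights the 3 days equally, and Benjamini-Hochberg adjustment ran over all genes with a threshold of 0.05. Each array is 1 section of 1 mouse, so errors measure spread between mice, sections and arrays together, and the number of arrays limits precision. Figures used python 3.11.15 and matplotlib 3.10.9.

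The members, the list of 85 further genes by role and the marker lists were chosen with earlier results of these data known. Named were all members, each further gene past the threshold, the 2 of smallest p in each role, and the 3 named genes most like Gstm1, Gsr and Srxn1. Single genes outside that rule (Slc7a11, Ggt1, Gstm3) are named for their status, and Gpx1, Gpx4 and Gpx7 to complete their role. Alternatives were other signals, scalings, filters, blocks for slide, scan day and position, and arrays left out.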

Additional observations from a re-analysis of the deposited data

Results flagged for a closer look

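In 60 checks of a gene in a group, 4 hearts lay far from the others of their group, where chance gives about 1 in 20. Gsr in control day 1 replicate 2 was at -0.71, against -1.17 to -1.03 in the other control hearts of that day. Gstm1 in carbon black day 3 replicate 2 was at 1.13, against 1.49 to 1.64 in the others. Gstm1 in control day 28 replicate 4 was at 0.43, against 0.96 to 1.22 in the others. Srxn1 in carbon black day 1 replicate 1 was at -1.73, against -1.49 to -1.35 in the others. Control day 1 replicate 2 and carbon black day 3 replicate 2 are also among the 5 hearts of low atrial score.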

How the results depend on the processing

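Across 16 other settings and 34 single arrays left out, Gstm1 stayed above 0 (0.24 to 1.1) and Gsr too (0.24 to 0.66), with 0.61 to 0.73 and 0.33 to 0.40 when single arrays were left out; Agilent's processed signals gave 0.24 for both. Srxn1 lay between -0.32 and -0.19 except with median centring (0.07 ± 0.15), where all 10 members lay above 0 and the median gene was shifted by 0.19; with position as a block 3 members lay above 0, and 4 to 6 did with single arrays left out. The further genes past the threshold (2) and all genes past it (387) were 6 and 1486 without background correction, 0 and 0 with Agilent's processed signals, 7 and 1311 (all higher) with median centring, 4 and 456 with quantile normalization, 5 and 1512 (829 higher) with the authors' deposited table, 1 and 400 with genes above background on all arrays, 0 and 148 without the filter, and 0 and 132 with the mean of probes. They were 0 and 0 with slide, scan day or position as a fixed block and without position 4 (1509 to 3209 genes at an unadjusted limma p under 0.05, and 2165 with Agilent's signals), 10 (8 higher) and 1037 without the hearts of low atrial score, and 0 and 1 without the control day 3 hearts of high liver score; the cause was not tested. With single arrays left out they ran from 0 to 5 and from 0 to 946. All genes were at 0 without control day 28 replicate 4, without replicate 3 of carbon black day 28 and without replicates 3 or 5 of carbon black day 3, and at 946 without control day 3 replicate 3. Mafk and Ggt5 both passed without 1 of these arrays: replicates 3 and 6 of carbon black day 1, replicates 1, 2 and 6 of control day 1, 2, 3 and 5 of control day 3, and 2 and 6 of control day 28, each left out singly. Mafk alone passed without replicates 2 or 4 of carbon black day 3, 1 or 4 of carbon black day 28, or 1 of control day 28, and neither without any other array. Over all alternatives the limma adjusted p ran from 0.0119 to 0.651 for Mafk and from 0.0109 to 0.869 for Ggt5. No member passed a test between days or in control hearts under any setting. By replicate number, no paired analysis was possible because the labels share no number between groups; hearts on a shared slide were compared within it and with slide as a block. Signal over background limited Gclm and Ggt5, each dim on some arrays.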
